A study of Homo sapiens with 24 samples.

Results

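Proteasome genes were taken as the measured genes with a single symbol that begins with PSMA, PSMB, PSMC, PSMD, PSME, PSMF or PSMG, without pseudogenes. They numbered 47 of the 18274 genes on the array that had 1 symbol, and each was represented by its probe set with the highest mean. Of these, 14 encode the constitutive core particle (7 of the alpha ring and 7 of the beta ring), 14 the regulatory cap (5 ATPases and 3 other subunits of its base, and 6 of its lid) and 3 the inducible catalytic subunits of the immunoproteasome. A further 2 are core subunits restricted to testis or thymus, 3 are chaperones that assemble the base, 4 are activators, 1 is an inhibitor and 4 are chaperones that assemble the core. The other two, PSMC3IP and PSME3IP1, share the letters of the prefix but encode proteins that are not proteasome subunits. PSMC5, PSMD7 and PSMD13 were not analysed here.

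RNA came from cultures of Huh7.5.1, a line derived from the human hepatoma line Huh7 and widely used to grow hepatitis C virus, although every sample title here carries the word novirus. Cells received silymarin, a flavonolignan extract of milk thistle seed, or its solvent DMSO, and each of the 24 RNA samples was hybridised to 1 Affymetrix Human Gene 1.0 ST array. The groups were silymarin at 4 h (4 arrays) and DMSO at 4 h (4), silymarin at 8 h (3) and DMSO at 8 h (5), and silymarin at 24 h (3) and DMSO at 24 h (5). The dose was not stated, and the labels do not say that replicates were separate cultures, so p-values measure the spread between these samples, which may be technical. Array medians lay between 7.04 and 7.18 on the log2 scale. With 3 to 5 arrays in a group, the few arrays set how precise each mean can be. The 8 measured hepatocyte markers averaged 12.47 to 12.57 on every array, while all 5 endothelial and all 5 fibroblast markers and 4 of 6 leukocyte markers were dim, with every group mean below 7.89, the median of all gene values. The leukocyte markers LYZ, at 11.60 to 12.62 over the arrays, and CD68, at 8.04 to 8.83, were not dim.

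The proteasome is the barrel-shaped protease that degrades proteins tagged with ubiquitin. Its core holds the proteolytic sites inside stacked rings of alpha and beta subunits, and the cap binds ubiquitin, unfolds the substrate with a ring of ATPases and feeds it into the core. Core and cap genes are known to be transcribed together, through the transcription factor NRF1 (NFE2L1) when proteasome activity is short, whereas interferons induce PSMB8, PSMB9 and PSMB10, whose products replace the catalytic subunits PSMB5, PSMB6 and PSMB7 and favour peptides for antigen presentation. In liver cells the proteasome clears misfolded and regulatory proteins and supplies peptides to MHC class I.

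Proteasome genes varied little, and the cap subunits varied together. Across 5 arrays from 3 groups, most cap genes and many core genes were low at the same time, whatever the treatment label. These arrays were replicates 4, 5 and 1 of DMSO at 8 h, replicate 1 of silymarin at 24 h and replicate 3 of silymarin at 8 h. The median deviation of the 14 cap genes from their own means over 24 arrays was -0.17 in silymarin 24 h replicate 1 and -0.15 in silymarin 8 h replicate 3, against -0.25, -0.18 and -0.12 in DMSO 8 h replicates 4, 5 and 1. In each of the other 19 arrays it was -0.04 or higher. The 14 core genes were less displaced, at -0.08 in silymarin 24 h replicate 1 and -0.09 in silymarin 8 h replicate 3, against -0.16, -0.08 and -0.07 in the same DMSO replicates. Within the core, the alpha ring did not keep to these 5 arrays. Its median was -0.13 in DMSO 24 h replicate 2, against -0.21, -0.09 and -0.04 in DMSO 8 h replicates 4, 5 and 1. In silymarin 24 h replicate 1 and silymarin 8 h replicate 3 the alpha ring median was -0.08 and -0.09. The 3 immunoproteasome genes had median deviations of 0.10 in silymarin 24 h replicate 1 and 0.07 in silymarin 8 h replicate 3, against 0.15, -0.09 and -0.12 in DMSO 8 h replicates 4, 5 and 1, so they did not share the pattern. The median deviation of all 18274 genes was close to 0 in these arrays, between -0.005 and 0.023.

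**Figure D1:**
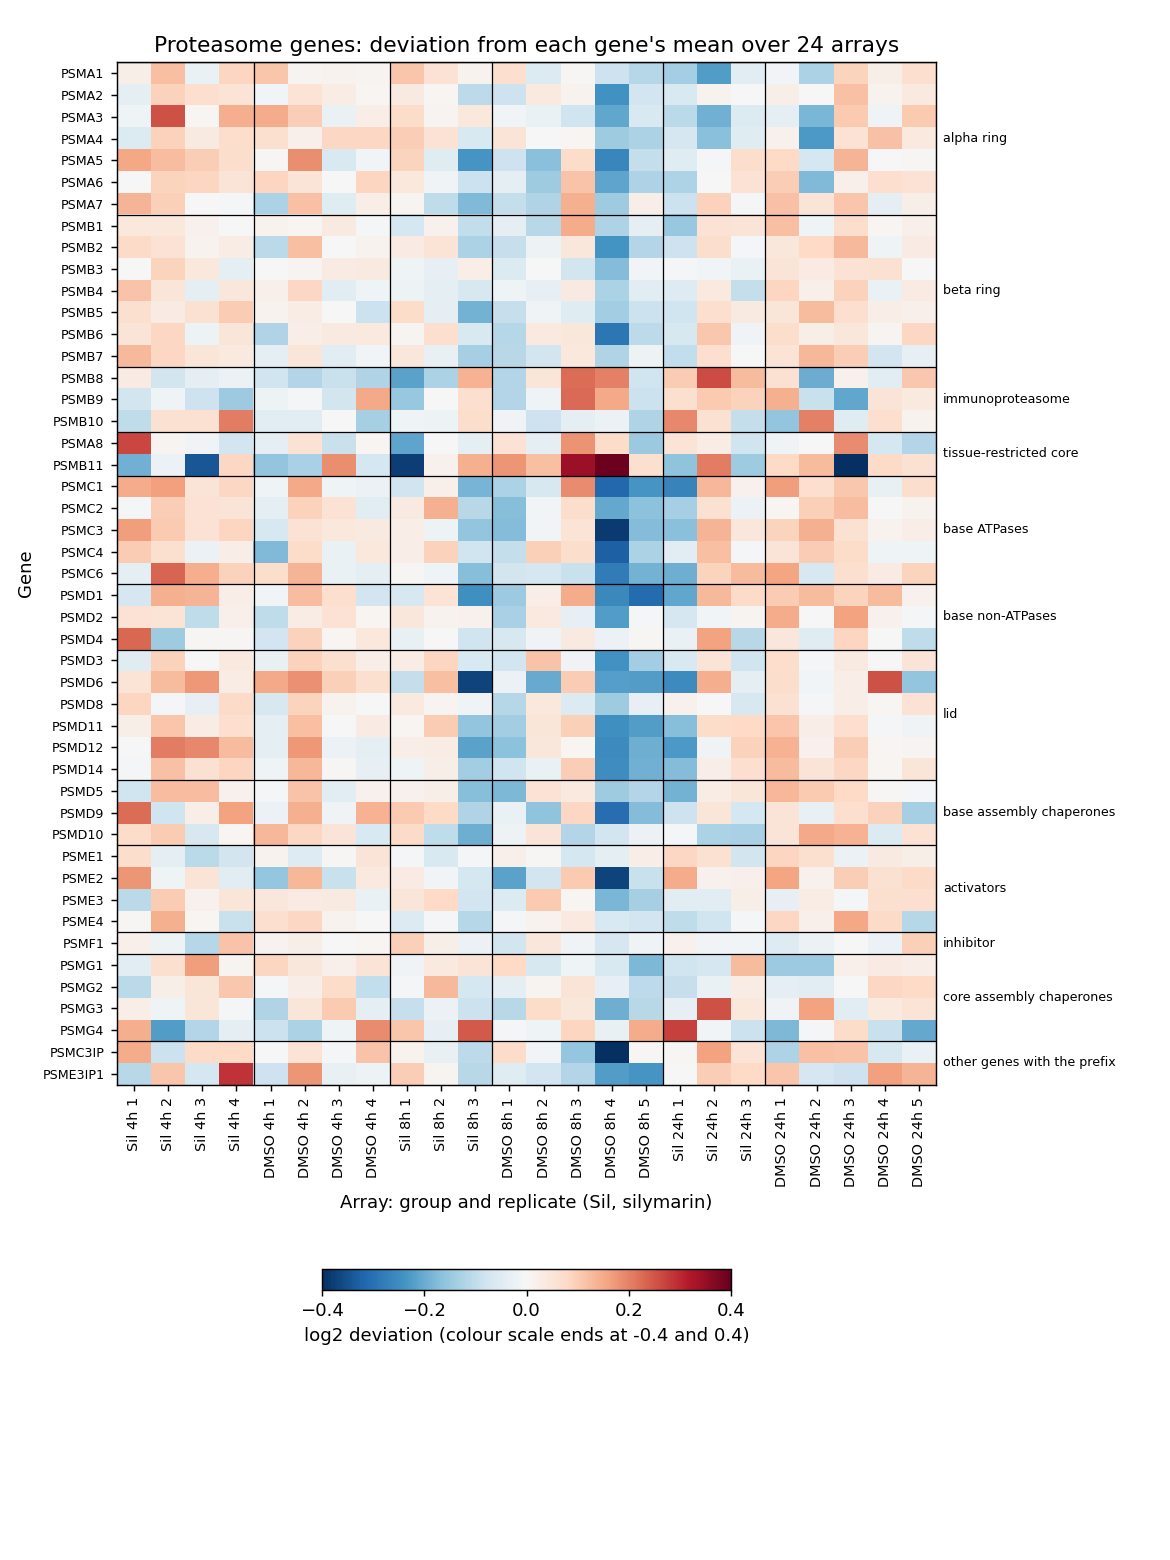
Heat map of log2 deviations from each gene's mean for the 47 proteasome genes (rows, grouped by role) over the 24 arrays (columns, grouped by treatment and time). The columns that are blue in most cap rows and many core rows are DMSO 8 h replicates 1, 4 and 5, silymarin 8 h replicate 3 and silymarin 24 h replicate 1. The 3 immunoproteasome rows do not follow them, and most alpha ring rows are also low in DMSO 24 h replicate 2.

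Each gene's own 5 lowest arrays were also counted, as a description. The 5 arrays above were picked by their cap medians from these same values, so the counts are no separate evidence. DMSO 8 h replicate 4 was among the lowest 5 for 35 of the 47 genes, DMSO 8 h replicate 5 for 29, silymarin 8 h replicate 3 for 27, and silymarin 24 h replicate 1 and DMSO 8 h replicate 1 for 25 each. No other array reached more than 9. The shares of all 18274 genes with the same array among their lowest 5 were 25.7%, 21.6%, 27.2%, 21.3% and 19.9% in that order. Among the 3412 genes with a mean of at least 10, to which 34 of the 47 belong, the shares were 41.9%, 29.3%, 43.5%, 31.0% and 26.3%. High-signal genes as a class were thus also low in these arrays, by a median of 0.01 to 0.06, and their part in the proteasome pattern was not tested. DMSO 8 h replicate 3 was among the lowest 5 for 38.9% of the high-signal genes but for only 8 of the 47 proteasome genes.

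For 9 genes the 5 arrays were exactly the 5 lowest of all 24, against 0.635% of all genes. They were the cap ATPases PSMC1, PSMC2 and PSMC3, the cap scaffold PSMD1, the lid subunits PSMD11, PSMD12 and PSMD14, the base chaperone PSMD5 and the alpha subunit PSMA2. At least 4 of the 5 were among the lowest for 11 of 14 cap genes, 6 of 14 core genes and 0 of 3 immunoproteasome genes, and for 19 of all 47, against 5.43% of all genes. The same shares among high-signal genes, which were more often low in these arrays than all genes, were not worked out. PSMC3, an ATPase of the base, was 10.34 or lower in the 5 arrays and 10.44 or higher in the other 19. PSMD12, a lid subunit, was 10.48 or lower in the 5 arrays and at least 10.60 elsewhere. PSMD14, the lid deubiquitinase that removes ubiquitin chains before degradation, was at most 11.74 and at least 11.78. These counts and gaps describe the arrays as they were found and carry no test, since the 5 arrays were picked out by the same values.

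**Figure D2:**
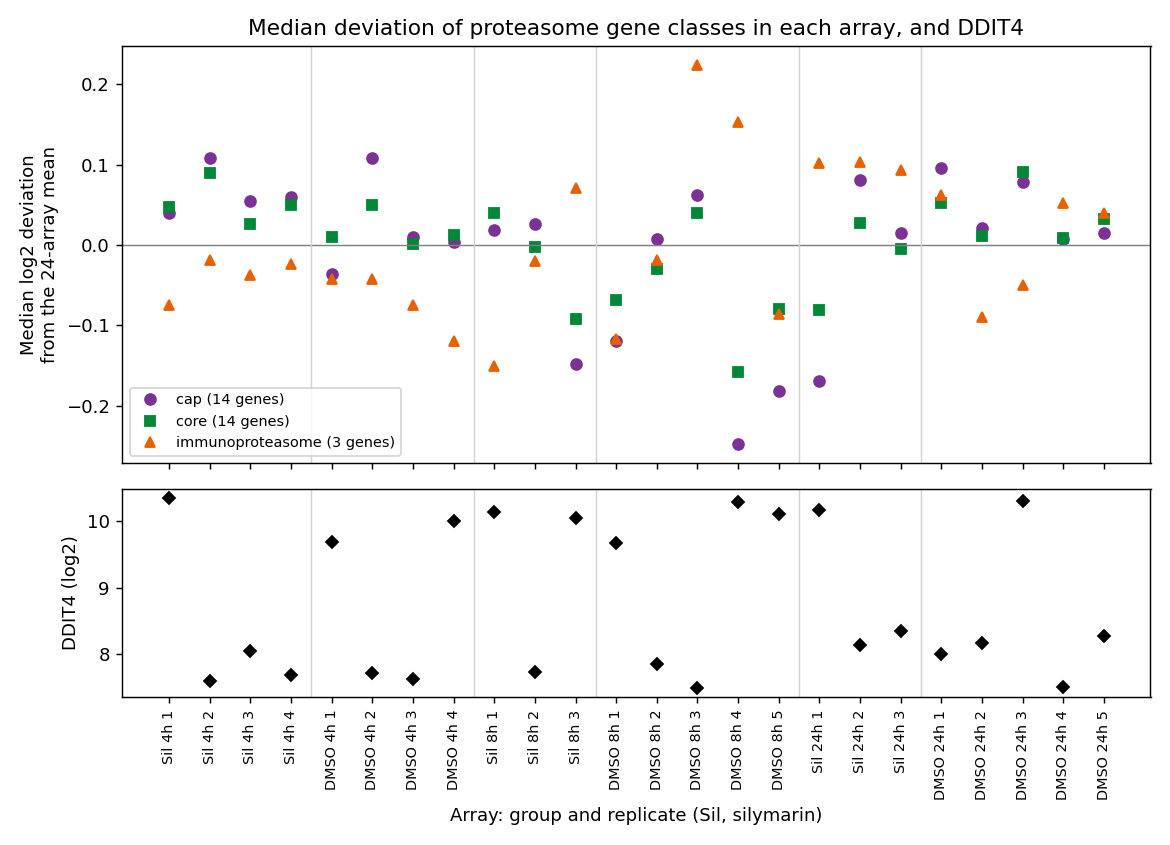
Upper panel: median log2 deviation from the 24-array mean of 14 cap, 14 core and 3 immunoproteasome genes in each array. Lower panel: log2 level of DDIT4 in the same arrays. The cap medians of 5 arrays lie at -0.12 or below and the other 19 at -0.04 or above, and DDIT4 is high in those 5 arrays and in 5 others.

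The stress gene DDIT4, an inhibitor of mTORC1 signalling, was high in all 5 of these arrays, at 10.16 in silymarin 24 h replicate 1 and 10.05 in silymarin 8 h replicate 3, against 10.28, 10.11 and 9.67 in DMSO 8 h replicates 4, 5 and 1. It was also high in 5 of the other 19 arrays: 10.34 in silymarin 4 h replicate 1, 10.14 in silymarin 8 h replicate 1, 9.69 and 10.005 in DMSO 4 h replicates 1 and 4, and 10.30 in DMSO 24 h replicate 3. Of these, DMSO 4 h replicate 1 came next after the 5 low arrays, with a cap median of -0.036 and 12 of 14 cap genes below their means. In the remaining arrays it was between 7.50 and 8.35. Its part in the pattern was not tested. Hepatocyte markers had median deviations of 0.05 in silymarin 24 h replicate 1 and 0.05 in silymarin 8 h replicate 3, against 0.02, -0.003 and 0.01 in DMSO 8 h replicates 4, 5 and 1. In bulk RNA, fewer cells and less of an RNA per cell cannot be told apart.

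Of the 47 genes, 41 had a RefSeq promoter (GRCh38.p14), taken as 250 bases before to 50 after the first listed start. The letters TGACNNNGC, the core of the antioxidant response element that NRF1 and NRF2 bind, were found on either strand in 13 of 41 (31.7%), against 13.6% of all 27305 promoters. They were present in 4 of 13 cap promoters, 1 of 10 core promoters and 3 of 4 activator promoters. The ETS letters CCGGAAGT were in 5 of 13 cap promoters and 0 of 10 core promoters, against 4.44% of all promoters. The letters CCAAT were in 19 of 41 (46.3%), against 35.7%, and an outline of the NF-kB site (GGG, any 5 bases and CC) in 27 of 41 (65.9%), against 58.0%. All were searched on both strands, and matches of different motifs may overlap each other. The 250 bases before the start are shown for PSMD12 (chr17:67366578-67366827, minus strand) and PSMD5 (chr9:120842923-120843172, minus strand), because both genes were lowest in exactly the 5 arrays and both hold the element there. Sequences run 5′ to 3′ on the gene's strand, ending at the base before the start, and capitals mark the match to TGACNNNGC.
PSMD12: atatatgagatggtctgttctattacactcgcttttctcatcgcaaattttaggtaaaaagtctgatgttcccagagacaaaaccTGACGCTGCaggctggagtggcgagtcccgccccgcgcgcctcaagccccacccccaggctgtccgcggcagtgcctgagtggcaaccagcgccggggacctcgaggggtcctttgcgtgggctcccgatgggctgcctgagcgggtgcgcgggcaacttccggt
PSMD5: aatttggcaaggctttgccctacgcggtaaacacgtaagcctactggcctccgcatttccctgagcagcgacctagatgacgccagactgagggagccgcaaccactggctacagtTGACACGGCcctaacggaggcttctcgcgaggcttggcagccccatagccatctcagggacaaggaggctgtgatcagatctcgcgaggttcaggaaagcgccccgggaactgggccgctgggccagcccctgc
The match begins 165 bases before the start in PSMD12 and 134 bases before it in PSMD5. Of the other 7 genes with the 5-array pattern, PSMD1 is the 1 whose window holds these letters, so 6 of the 9 genes lacked them in this window.

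limma called 0 genes in any comparison at an adjusted p under 0.05, and therefore 0 proteasome genes. The comparisons of silymarin with DMSO asked how the drug altered expression early, later and after a day. At an unadjusted p under 0.05 the proteasome genes numbered 0 of 47 at 4 h, where 2.48% of all genes did so, 1 of 47 at 8 h (3.93%) and 2 of 47 at 24 h (3.03%). Differences in the core and cap genes were small and mostly ran the same way within a time point. At 4 h, 25 of the 28 core and cap genes had a positive log2 difference, with a median of 0.03, against 47.5% of all genes and a median of -0.01. At 8 h, 23 of 28 were positive with a median of 0.06, against 42% of all genes and a median of -0.02. Of the 5 low arrays, 3 are among the 5 DMSO arrays at 8 h and 1 among the 3 silymarin arrays. The cap median at 8 h was 0.075, and it was 0.13 without silymarin replicate 3, 0.047 without silymarin replicate 1, 0.035 without silymarin replicate 2 and 0.027 without DMSO replicate 4. At 4 h the cap median was 0.033, and it was 0.013, 0.063 and 0.022 without DMSO replicates 1, 2 and 4. At 24 h, 1 of 28 was positive and the median was -0.06, against 56% of all genes and a median of 0.01. These genes vary together across arrays, so the counts are not counts of independent observations. Without silymarin 24 h replicate 1, the array whose cap genes were low, 17 of 28 lay below 0 at 24 h and the median of the 14 cap genes was 0.004.

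**Figure D3:**
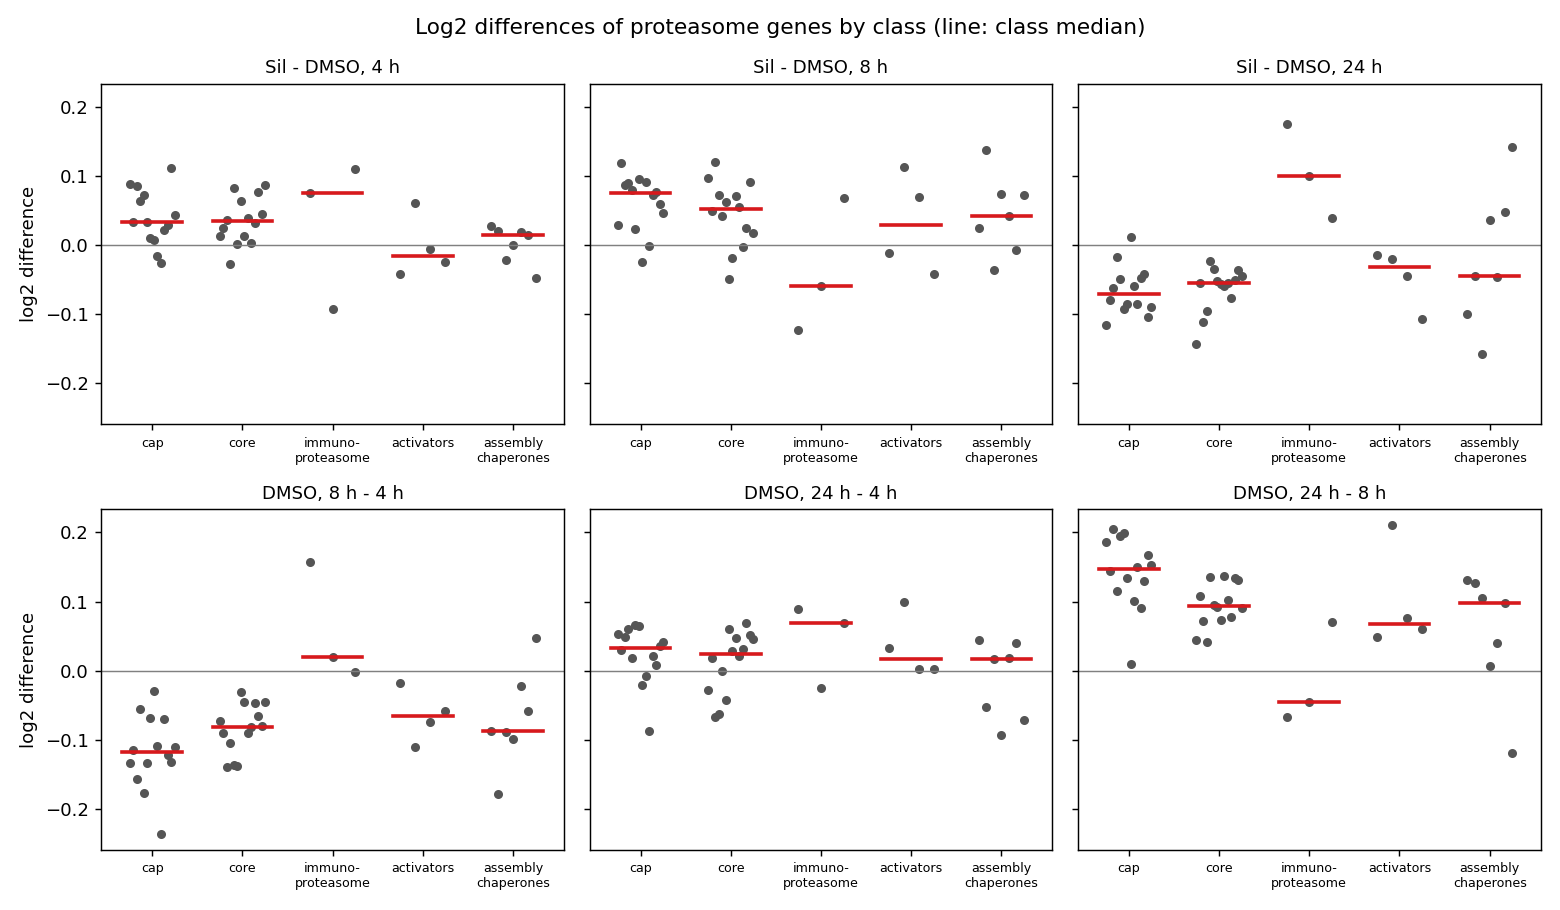
Log2 differences of proteasome genes (points) by class, with the class median (red line), for silymarin minus DMSO at 4, 8 and 24 h and for later minus earlier DMSO arrays. Core and cap points lie mostly above 0 at 4 h and 8 h and below 0 at 24 h, and the 28 core and cap points of DMSO 24 h minus DMSO 8 h are all above 0. The inhibitor, the 2 tissue-restricted subunits and the 2 other genes are not drawn.

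Among cap genes, none of the 14 had an unadjusted p under 0.05 in a silymarin comparison with the probe sets used here. With these probe sets PSMD12 had the largest difference of the cap at 4 h. It was 10.64, 10.85, 10.84 and 10.77 in silymarin 4 h replicates 1 to 4, against 10.61, 10.82, 10.62 and 10.60 in DMSO 4 h. The silymarin arrays were high but the groups overlapped, because DMSO replicate 2 lay between them, and the difference was 0.11 (SE 0.08, limma adjusted p = 0.99993). PSMC2, an ATPase of the base, was 11.91, 12.01 and 11.76 in silymarin 8 h, against 11.70, 11.86, 11.94, 11.67 and 11.71 in DMSO 8 h. The groups overlapped again, and the difference was 0.12 (SE 0.07, limma adjusted p = 0.991).

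PSMC1 and PSMC6, ATPases of the same ring, each had a second probe set. For PSMC1 the probe sets correlated across the 24 arrays with r = 0.997 (a description of 2 probe sets of 1 gene) and gave close differences. For PSMC6, with r = 0.837, the second probe set differed by 0.21 (SE 0.08) between silymarin and DMSO at 4 h, against 0.07 (SE 0.08) for the one used here, and limma's adjusted p was 0.9999 for both. PSMC6 at 4 h is therefore uncertain.

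The constitutive catalytic subunits of the core are PSMB5 (chymotrypsin-like), PSMB6 (caspase-like) and PSMB7 (trypsin-like). PSMB5 was 11.75, 11.72, 11.75 and 11.79 in silymarin 4 h, against 11.70, 11.71, 11.68 and 11.60 in DMSO 4 h. The lowest silymarin array lay just above the highest DMSO array, so the groups did not overlap, as was the case in the same direction for 0.629% of all genes. The difference was 0.08 with a 95% interval of -0.04 to 0.19 (limma adjusted p = 0.99993). At 8 h PSMB5 was 11.76, 11.65 and 11.50 in silymarin, against 11.59, 11.67, 11.63, 11.55 and 11.60 in DMSO, a spread of silymarin arrays wider than any difference of means. At 24 h it was 11.60, 11.75 and 11.72 in silymarin, against 11.73, 11.81, 11.75, 11.71 and 11.70 in DMSO.

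PSMB6 was 12.70, 12.74, 12.63 and 12.70 in silymarin 4 h, against 12.53, 12.68, 12.69 and 12.69 in DMSO 4 h. At 8 h it was 12.66, 12.72 and 12.59 in silymarin, against 12.54, 12.69, 12.70, 12.36 and 12.55 in DMSO. By 24 h PSMB6 was 12.59, 12.76 and 12.64 in silymarin, against 12.72, 12.68, 12.70, 12.66 and 12.74 in DMSO. The groups overlapped at every time, and the differences were 0.05, 0.09 and -0.04 (SE 0.07 each). PSMB7 was 12.37, 12.32, 12.29 and 12.28 in silymarin 4 h, against 12.20, 12.29, 12.20 and 12.23 in DMSO 4 h, a difference of 0.09 (SE 0.06) in which 1 DMSO array reached the lower silymarin arrays. At 8 h it was 12.29, 12.21 and 12.11 in silymarin, against 12.13, 12.17, 12.28, 12.12 and 12.22 in DMSO. By 24 h PSMB7 was 12.14, 12.31 and 12.24 in silymarin, against 12.29, 12.37, 12.34, 12.16 and 12.21 in DMSO. Both later comparisons overlapped, with differences of 0.02 and -0.05 (SE 0.06 each).

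The alpha ring, which forms the gate of the core, held the gene of the core with the smallest unadjusted p at 24 h. PSMA1 was 11.74, 11.66 and 11.84 in silymarin 24 h, against 11.87, 11.75, 11.97, 11.90 and 11.95 in DMSO 24 h. All silymarin arrays were below 4 of the 5 DMSO arrays, and DMSO replicate 2 lay among them. The difference was -0.14 (95% interval -0.27 to -0.02, unadjusted p = 0.028, limma adjusted p = 0.9997). PSMA3 was 11.13, 11.07 and 11.10 in silymarin 8 h, against 11.05, 11.03, 10.98, 10.85 and 10.998 in DMSO 8 h, and these groups did not overlap, as for 0.947% of all genes. Its difference was 0.12 (SE 0.07, limma adjusted p = 0.991). PSMB3, a non-catalytic beta subunit picked out after its values were seen, was 12.389, 12.38 and 12.37 in silymarin 24 h, against 12.44, 12.43, 12.45, 12.46 and 12.393 in DMSO 24 h, which did not overlap, a pattern held by 0.772% of all genes.

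PSMB8, PSMB9 and PSMB10 encode the inducible catalytic subunits, and PSMB8 and PSMB9 lie in the MHC class II region of chromosome 6. All 3 were dim here, with every group mean below 7.89. PSMB8 was 4.92, 4.82, 4.85 and 4.87 in silymarin 4 h, against 4.81, 4.77, 4.80 and 4.77 in DMSO 4 h. These groups did not overlap, as was the case in this direction for 0.629% of all genes, and the difference was 0.08 (SE 0.08). At 8 h PSMB8 was 4.68, 4.76 and 5.03 in silymarin, against 4.77, 4.94, 5.11, 5.09 and 4.81 in DMSO, a difference of -0.12 (SE 0.09) with overlap. At 24 h it was 4.992, 5.15 and 5.02 in silymarin, against 4.95, 4.69, 4.91, 4.84 and 4.998 in DMSO. The silymarin arrays were high but the highest DMSO array lay just above the lowest of them, and the difference was 0.17 (95% interval -0.0014 to 0.35, unadjusted p = 0.052, limma adjusted p = 0.9997).

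PSMB9 was 6.16, 6.21, 6.15 and 6.09 in silymarin 4 h, against 6.21, 6.23, 6.16 and 6.38 in DMSO 4 h. At 8 h it was 6.08, 6.23 and 6.30 in silymarin, against 6.11, 6.21, 6.46, 6.38 and 6.15 in DMSO. By 24 h PSMB9 was 6.30, 6.34 and 6.33 in silymarin, against 6.38, 6.14, 6.02, 6.28 and 6.27 in DMSO. The groups overlapped at each time, and the differences were -0.09, -0.06 and 0.10 (SE 0.08 each). PSMB10 was 7.72, 7.88, 7.88 and 8.03 in silymarin 4 h, against 7.78, 7.78, 7.82 and 7.69 in DMSO 4 h. At 8 h it was 7.80, 7.80 and 7.89 in silymarin, against 7.81, 7.74, 7.78, 7.80 and 7.70 in DMSO. At 24 h it was 8.01, 7.88 and 7.73 in silymarin, against 7.66, 8.02, 7.77, 7.89 and 7.83 in DMSO. It overlapped at each time with differences of 0.11 (SE 0.07), 0.07 (SE 0.08) and 0.04 (SE 0.08). Averaged over the 3 times, PSMB10 differed by 0.07 (SE 0.04, limma adjusted p = 0.9999), against 0 of 47 genes with an unadjusted p under 0.05 in the averaged effect and 2.83% of all genes.

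**Figure D4:**
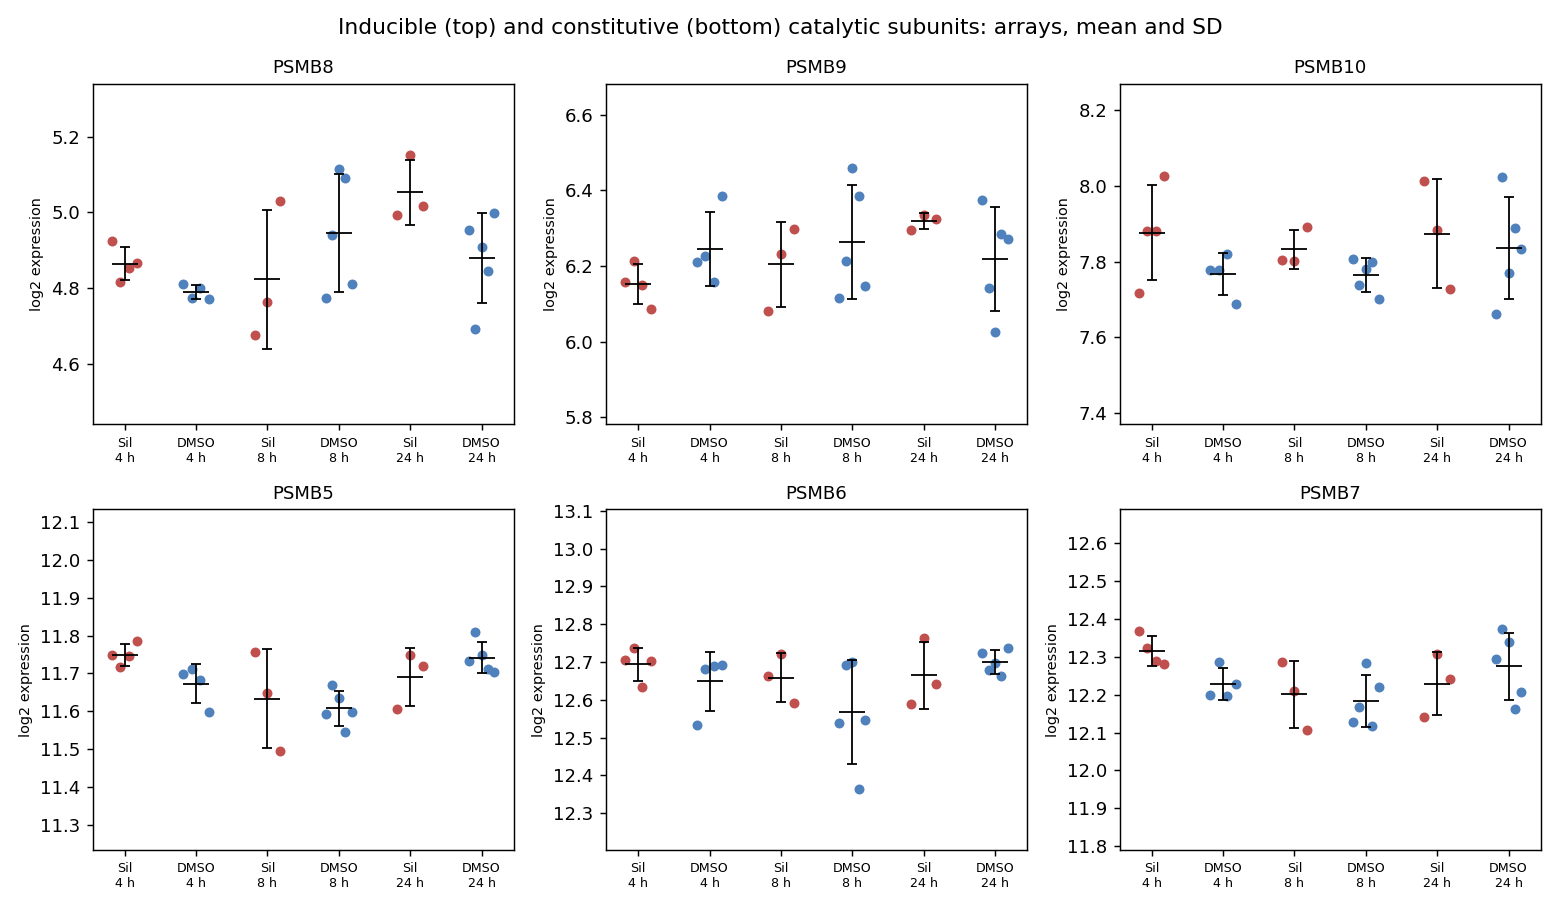
Log2 levels of the inducible (upper row) and constitutive (lower row) catalytic subunits in silymarin (red) and DMSO (blue) arrays at 4, 8 and 24 h, with the mean and SD of each group. Every panel spans 0.9 on the log2 scale around the gene's mean. Silymarin and DMSO points separate for PSMB8 and PSMB5 at 4 h and overlap elsewhere.

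PSMB8 and PSMB9 correlated across the 24 arrays (Pearson r = 0.62, Spearman rho = 0.58, permutation p = 0.0012 and 0.0030, adjusted p = 0.0041 and 0.014 over 14 pairs), and r was 0.51 without the 2 arrays farthest from the median of PSMB8. The correlation was 0.63 after group means were removed (adjusted permutation p = 0.0052). PSMB8 and PSMB10 gave r = -0.03, and PSMB9 and PSMB10 gave r = -0.22 (permutation p = 0.875 and 0.310). PSMB9 also correlated with TAP1, the peptide transporter gene that lies head to head with it, with start sites 488 bases apart on opposite strands of chromosome 6 (r = 0.67, rho = 0.62, adjusted permutation p = 0.0027 and 0.011). Without the 2 arrays farthest from the median of PSMB9 it was 0.52, and 0.67 with group means removed. Over the 19 arrays outside the 5 described above, a choice made after seeing the data, r was 0.53 for PSMB8 with PSMB9 (adjusted permutation p = 0.089, 0.29 without 2 arrays) and 0.66 for PSMB9 with TAP1 (adjusted permutation p = 0.030, 0.48 without 2 arrays). Spearman's rho over these 19 arrays was 0.43 and 0.58 (adjusted permutation p = 0.298 and 0.078), so neither passed by rank. After repeated quantile normalization, Pearson r over all 24 arrays became 0.42 for PSMB8 with PSMB9 and 0.33 for PSMB9 with TAP1 (adjusted permutation p = 0.155 and 0.236). Both calls of the 24 arrays were thus lost under that scaling. PSMB9 and the interferon-induced transcription factor IRF1 gave r = 0.14 (permutation p = 0.527). PSMB9 was highest in DMSO 8 h replicate 3 (6.46) and lowest in DMSO 24 h replicate 3 (6.02). Array medians were also highest and lowest there. The dim endothelial markers had median deviations of 0.20 and -0.24 in these 2 arrays, and the dim fibroblast markers 0.24 and -0.11. With arrays re-centred to 1 median, r was 0.62 for PSMB8 with PSMB9 and 0.66 for PSMB9 with TAP1. Whether other dim genes correlate as strongly was not tested.

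**Figure D5:**
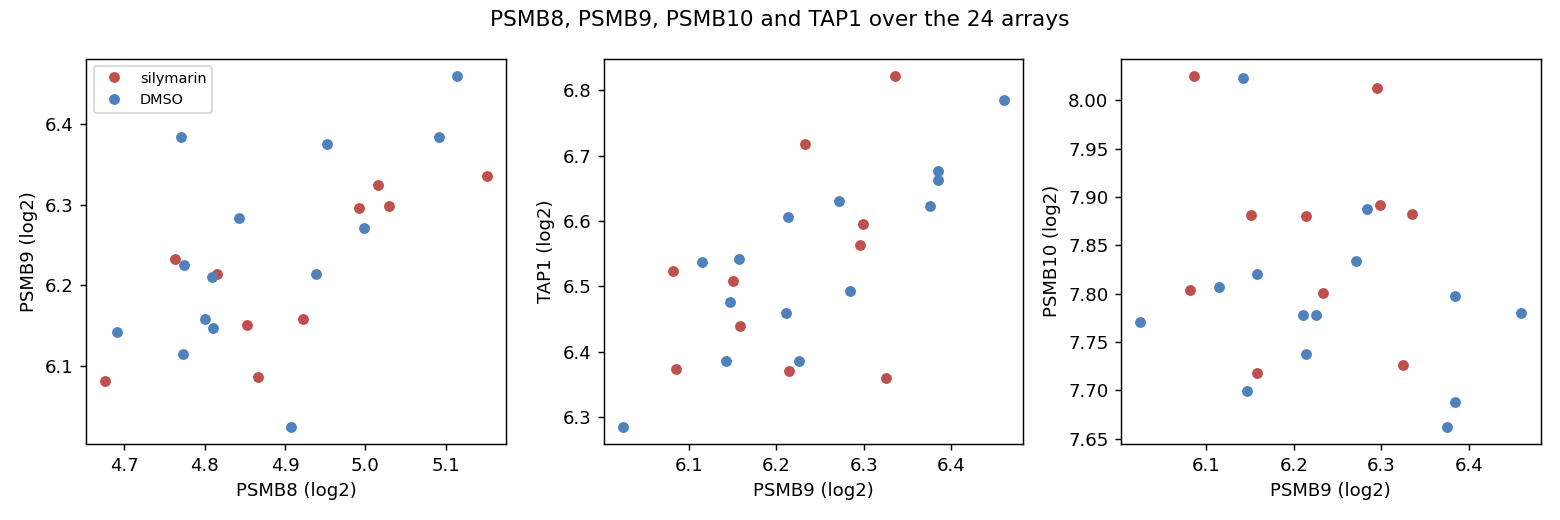
Scatter plots of log2 levels over the 24 arrays (silymarin red, DMSO blue) for PSMB8 with PSMB9, PSMB9 with TAP1 and PSMB9 with PSMB10. The first 2 panels slope upwards (r = 0.62 and 0.67) and the last does not (r = -0.22).

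Promoters of the inducible subunits PSMB9 (chr6:32853942-32854191, plus strand) and PSMB10 (chr16:67936851-67937100, minus strand) are shown because they hold different letters. Any tie between these letters and the correlations was not tested. Capitals mark the antioxidant element core in PSMB9, read on the other strand, and in PSMB10 the letters GAAA, any 2 bases and GAAA, an outline of the element bound by interferon regulatory factors.
PSMB9: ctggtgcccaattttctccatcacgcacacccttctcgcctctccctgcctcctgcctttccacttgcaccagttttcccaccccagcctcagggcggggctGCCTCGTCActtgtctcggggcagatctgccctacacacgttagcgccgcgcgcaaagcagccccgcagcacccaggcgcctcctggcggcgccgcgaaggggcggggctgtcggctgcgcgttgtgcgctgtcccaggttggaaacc
PSMB10: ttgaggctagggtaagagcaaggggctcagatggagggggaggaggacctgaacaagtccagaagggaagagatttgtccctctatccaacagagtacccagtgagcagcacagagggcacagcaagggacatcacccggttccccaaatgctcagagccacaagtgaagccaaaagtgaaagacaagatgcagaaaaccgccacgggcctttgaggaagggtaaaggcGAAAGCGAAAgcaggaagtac
The interferon letters stood 21 bases before the start of PSMB10. They were found on either strand in 6 of the 41 promoters (PSMB10, PSME1, PSME2, PSMB4, PSMA4 and PSMG4), against 3.65% of all promoters, and in 0 of 13 cap promoters. PSMB8 did not hold the letters of any of these 5 motifs in its window, and nothing about a factor follows from that.

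Among the constitutive catalytic subunits, all 3 pairs correlated over the 24 arrays, which include the 5 low arrays. PSMB5 and PSMB7 gave r = 0.79 and rho = 0.80 (adjusted permutation p = 0.00014 for both, the smallest that the permutations can give), and r was 0.71 without the 2 arrays farthest from the median of PSMB5. PSMB5 and PSMB6 gave r = 0.59 and rho = 0.45 (adjusted permutation p = 0.0078 and 0.075), and 0.45 without 2 arrays. PSMB6 and PSMB7 gave r = 0.60 and rho = 0.57 (adjusted permutation p = 0.0041 and 0.015), and 0.55 without 2 arrays. Over the 19 arrays, again a choice made after seeing the data, PSMB5 with PSMB7 gave r = 0.60 and rho = 0.68 (adjusted permutation p = 0.046 and 0.025). Over the same 19, PSMB5 with PSMB6 gave r = -0.0067 and PSMB6 with PSMB7 gave 0.27 (adjusted permutation p = 0.978 and 0.627), so these calls of the 24 arrays were lost without the 5 arrays. Both were also lost over all 24 arrays once group means were removed, with r = 0.41 and 0.49 (adjusted permutation p = 0.111 and 0.0503). PSMB5 with PSMB7 then gave r = 0.68 (adjusted permutation p = 0.0034). The cap subunits PSMD4, a ubiquitin receptor, and PSMC4 gave r = 0.41 over 24 arrays and 0.48 over 19 (adjusted permutation p = 0.117 and 0.149). As a description over all pairs in these 19 arrays, the median correlation was 0.28 within the cap (91 pairs), 0.19 within the core (91 pairs) and 0.21 between them (196 pairs), against -0.001 between cap genes and all other genes. Between cap and immunoproteasome genes it was 0.04 (42 pairs).

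The core subunits of other tissues, PSMA8 (testis) and PSMB11 (thymus), were dim, with every group mean below 7.89. PSMB11 had the smallest unadjusted p at 8 h. It was 4.996, 5.39 and 5.51 in silymarin, against 5.55, 5.49, 5.71, 5.76 and 5.44 in DMSO, a difference of -0.29 (95% interval -0.57 to -0.01, unadjusted p = 0.045, limma adjusted p = 0.991). Silymarin replicate 1 was the low array and the groups overlapped. The difference was -0.14 without that array, and it ranged to -0.40, without silymarin replicate 3. PSMB11 also had the widest spread of the 47 genes, an SD within groups of 0.20.

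The activators PSME1 and PSME2 form the interferon-inducible PA28 ring that opens the core, PSME3 forms its nuclear relative and PSME4 encodes PA200. PSME1 was among the 3 steadiest of the 47 genes, with an SD within groups of 0.054. It was 10.06, 9.96, 9.88 and 9.92 in silymarin 4 h, against 10.01, 9.94, 9.998 and 10.04 in DMSO 4 h. At 8 h it was 9.99, 9.93 and 9.99 in silymarin, against 10.01, 9.996, 9.92, 9.95 and 10.02 in DMSO. By 24 h PSME1 was 10.07, 10.05 and 9.92 in silymarin, against 10.08, 10.06, 9.97, 10.03 and 10.02 in DMSO. The groups overlapped each time, and the differences were -0.04, -0.01 and -0.01 (SE 0.05 each).

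PSME2 was 10.24, 10.04, 10.11 and 10.02 in silymarin 4 h, against 9.90, 10.19, 9.97 and 10.10 in DMSO 4 h. At 8 h it was 10.09, 10.05 and 9.99 in silymarin, against 9.85, 9.99, 10.16, 9.69 and 9.97 in DMSO. At 24 h it was 10.21, 10.08 and 10.08 in silymarin, against 10.22, 10.08, 10.16, 10.12 and 10.14 in DMSO. Its DMSO arrays at 8 h spread widely and included the lowest value of all 24, 9.69 in replicate 4, and the differences were 0.06, 0.11 and -0.02 (SE 0.08 each). PSME1 and PSME2 gave r = 0.20 over the 24 arrays (permutation p = 0.354). PSME4 was 11.34, 11.36 and 11.43 in silymarin 24 h, against 11.52, 11.46, 11.59, 11.52 and 11.33 in DMSO 24 h. All silymarin arrays lay below 4 of the 5 DMSO arrays, and the difference was -0.11 (SE 0.06, limma adjusted p = 0.9997). The promoter of PSME2 (chr14:24146611-24146860, minus strand) is shown for comparison with that of PSMB10, with the interferon letters in capitals, 28 bases before the start.
PSME2: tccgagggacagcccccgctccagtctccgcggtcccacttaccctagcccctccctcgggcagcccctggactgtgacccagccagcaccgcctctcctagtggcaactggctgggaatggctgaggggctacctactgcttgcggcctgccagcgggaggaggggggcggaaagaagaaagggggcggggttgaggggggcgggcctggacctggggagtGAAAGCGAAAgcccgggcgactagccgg
PSME1 and PSME2 each held both the interferon letters and the antioxidant element core within the 300-base window.

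The chaperones that assemble the base, PSMD5, PSMD9 and PSMD10, bind its ATPases before the cap is complete. PSMD10 (gankyrin, an oncoprotein in hepatocellular carcinoma) was 10.94, 10.82 and 10.82 in silymarin 24 h, against 10.9998, 11.10, 11.09, 10.89 and 11.005 in DMSO 24 h. The silymarin arrays were low, with DMSO replicate 4 between them, and the difference was -0.16 (95% interval -0.30 to -0.02, unadjusted p = 0.029, limma adjusted p = 0.9997). Averaged over the 3 times PSMD10 differed by -0.07 (SE 0.04) and PSME4 by -0.06 (SE 0.03), with limma adjusted p = 0.9999 for both. PSMD9 was 8.16, 8.14 and 7.94 in silymarin 8 h, against 8.03, 7.90, 8.14, 7.76 and 7.89 in DMSO 8 h, an overlapping difference of 0.14 (SE 0.08). The inhibitor PSMF1 had differences of -0.01, 0.06 and -0.001 at 4, 8 and 24 h. The core chaperones PSMG1 to PSMG4 had medians of 0.01, 0.06 and 0.04, with differences between -0.05 and 0.14.

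The change of the silymarin effect between times was tested as an interaction. From 8 h to 24 h, 3 of the 47 genes had an unadjusted p under 0.05, against 4.08% of all genes. A negative change was found in 27 of 28 core and cap genes, where 59.3% of all genes had a positive one. These genes vary together, and every low array belongs to DMSO 8 h, silymarin 8 h or silymarin 24 h, which enter this comparison. Without silymarin 24 h replicate 1, those below 0 in silymarin minus DMSO at 24 h fell from 27 to 17. The interaction count itself was not repeated without single arrays. PSMA1 had an estimate of -0.24 (SE 0.09, unadjusted p = 0.010, limma adjusted p = 0.950), and PSMB8 had an estimate of 0.30 (SE 0.12, unadjusted p = 0.021, limma adjusted p = 0.950). From 4 h to 8 h, 0 of 47 had an unadjusted p under 0.05, against 2.37% of all genes, and PSMB8 and PSMA8 had estimates of -0.20 (SE 0.12) and -0.17 (SE 0.12). From 4 h to 24 h, again 0 of 47, against 3.02%, with PSMD12 at -0.22 (SE 0.12) and PSMA1 at -0.16 (SE 0.08). None of these interactions passed adjustment.

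The DMSO arrays gave the background of time in culture. DMSO 8 h held 3 of the 5 low arrays, and its arrays also serve as the control of silymarin at 8 h. All 28 core and cap genes lay above 0 in DMSO 24 h minus DMSO 8 h, with medians of 0.15 for the cap and 0.09 for the core, against 49.1% of all genes and a median of -0.003. Of the 28, 13 had an unadjusted p under 0.05, all higher at 24 h, against 10.9% of all genes (5.44% higher), and the smallest limma adjusted p among the 47 was 0.429. Without DMSO 8 h replicate 4 the 13 became 3, without replicate 5 they became 6, without replicate 1 they became 8, and without replicate 3, which was not low, 21. They became 7 without DMSO 24 h replicate 1 or replicate 3. The immunoproteasome had 1 of 3 genes above 0. Core and cap genes vary together, so these are not counts of independent observations. High-signal genes, with a mean of at least 10, had median deviations of -0.045 to -0.006 in the DMSO 8 h arrays. In the DMSO 24 h arrays these were -0.005 to 0.034, and their part in the differences was not tested.

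PSMC3 was 10.59, 10.64, 10.56, 10.52 and 10.53 in DMSO 24 h, against 10.33, 10.49, 10.56, 10.12 and 10.33 in DMSO 8 h. DMSO 8 h replicates 2 and 3 came close to or reached the 24 h arrays, and the difference was 0.20 (SE 0.07, unadjusted p = 0.0073, limma adjusted p = 0.429). PSMC6 was 10.72, 10.4999, 10.63, 10.60 and 10.65 in DMSO 24 h, against 10.49, 10.497, 10.47, 10.29 and 10.38 in DMSO 8 h, with no overlap, as in 0.925% of all genes, and a difference of 0.20 (SE 0.07). Its second probe set gave 0.20 (SE 0.07). PSME2 differed by 0.21 (SE 0.07) and PSMB5 by 0.13 (SE 0.05), both with limma adjusted p = 0.429.

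DMSO 8 h minus DMSO 4 h ran the other way. All 28 core and cap genes lay below 0, with medians of -0.12 for the cap and -0.08 for the core, against 53.5% of all genes above 0, and 5 had an unadjusted p under 0.05, against 6.5% of all genes. That count was 1 without DMSO 8 h replicate 4 or 5, 8 without replicate 2 and 10 without replicate 3. It was 0 without DMSO 4 h replicate 2 and 2 without DMSO 4 h replicate 1 or 4. Under re-centring, repeated quantile normalization, cyclic loess and a fit of only the groups compared it was 3, 2, 2 and 2. High-signal genes had median deviations of -0.007 to 0.018 in the DMSO 4 h arrays, against -0.045 to -0.006 in the DMSO 8 h arrays. Their part here was not tested either. PSMD6, a lid subunit, was 9.01, 8.83, 9.14, 8.82 and 8.81 in DMSO 8 h, against 9.19, 9.22, 9.13 and 9.10 in DMSO 4 h, a difference of -0.24 (SE 0.10, limma adjusted p = 0.739). DMSO 8 h replicate 3 alone reached the 4 h arrays. PSMC6 differed by -0.18 (SE 0.07) with no overlap, as in 0.826% of all genes, but its second probe set gave -0.09 (SE 0.08). PSMD9 differed by -0.18 (SE 0.08). Over DMSO 24 h minus DMSO 4 h, 0 of 47 genes had an unadjusted p under 0.05, against 1.7% of all genes, and 20 of 28 core and cap genes lay above 0, against 55.1% of all genes. PSMG1 differed by -0.09 (SE 0.06), PSME2 by 0.10 (SE 0.08) and PSMB5 by 0.07 (SE 0.05). An F-test over the 6 groups gave PSMC6, PSMC3 and PSMA3 the smallest unadjusted p of the 47, at 0.0305, 0.0400 and 0.0496 (limma adjusted p = 0.674), and these 3 of 47 compare with 7.2% of all genes.

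Spread within groups differed by role. The median SD within groups was 0.093 over the 47 genes, against 0.123 over all 18274. It was 0.077 for the core and 0.106 for the cap, with 0.113 for the immunoproteasome. PSMB3 was the steadiest with 0.043, a value below which 0.285% of all genes fell, followed by PSMD8 of the lid and PSME1 with 0.054 each. The widest were PSMB11 with 0.20, PSMD6 with 0.15 and the core chaperone PSMG4 with 0.13.

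Genes that work with the proteasome were followed as lists. Of 10 partners, which include the associated deubiquitinases USP14 and UCHL5 and the maturation factor POMP, 9 lay above 0 at 4 h, 6 at 8 h and 1 at 24 h in silymarin minus DMSO, and 0 had an unadjusted p under 0.05. TXNL1, a redox protein bound to the cap, differed by 0.10 (SE 0.05) at 4 h and USP14 by 0.10 (SE 0.06) at 8 h. The partners were among their own 5 lowest in 4 of 10 cases in silymarin 24 h replicate 1 and 6 of 10 in silymarin 8 h replicate 3, against 7, 3 and 3 of 10 in DMSO 8 h replicates 4, 5 and 1. The shares of all genes were 21.3% and 27.2% in these silymarin arrays, against 25.7%, 21.6% and 19.9% in the DMSO arrays, and those of high-signal genes were 31.0% and 43.5%, against 41.9%, 29.3% and 26.3%. The counts of 3 of 10 lie near both shares. Outside the 5 arrays, the partners were among their lowest in 6 of 10 cases in DMSO 8 h replicate 2. The shares there were 16.0% of all genes and 20.1% of high-signal genes. The count was 4 of 10 in DMSO 4 h replicate 1 and in DMSO 24 h replicate 2, so the partners were not low in the 5 arrays alone. Of 9 genes of the NRF1 axis, which controls proteasome transcription, 8, 5 and 6 lay above 0 at 4, 8 and 24 h. VCP, the segregase that extracts ubiquitinated proteins, differed by 0.09 (SE 0.06) at 8 h, and the small MAF protein MAFF by 0.19 (SE 0.13). Of 10 genes of ubiquitin supply and shuttling, 7, 5 and 4 lay above 0, and the activating enzyme UBA6 differed by -0.13 (SE 0.09) and the shuttle UBQLN2 by -0.12 (SE 0.09) at 8 h. Of 8 antigen processing genes, 5, 4 and 6 lay above 0. IRF1 differed by 0.22 (SE 0.11) at 4 h and the peptide-loading factor TAPBP by -0.20 (SE 0.11) at 24 h. None of the listed genes of these 4 lists had an unadjusted p under 0.05 in a silymarin comparison, and limma called 0 of them.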

How the data were processed

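Total RNA of 24 Huh7.5.1 samples was measured on 1 array each. The authors deposited log2 expression values per probe set, and the submitters' processing notes name RMA and the oligo software, without a version. A genome build for the arrays is not given in the sources used here. Of 28869 probe sets, 19302 carried 1 gene symbol in the platform annotation, 1729 several and 7838 none. Each of the 18274 genes was represented by its probe set with the highest mean. PSMB8 and PSMB9 have 3 probe sets each with identical values.

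A model with the 6 groups as terms was fitted across all genes with limma 3.58.1 in R 4.3.3 (18 residual and 5.04 prior degrees of freedom), and p-values were adjusted over all genes by the Benjamini-Hochberg method. All silymarin, interaction and DMSO comparisons at a time share that time's DMSO arrays. Correlations used 100000 permutations (SciPy 1.17.1, Python 3.11.15), adjusted over 14 pairs. Figures were drawn with matplotlib 3.10.9.

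The text gives every array for PSMB5 to PSMB10, PSME1 and PSME2. It also names the 4 genes with the smallest unadjusted p in each silymarin comparison, the 3 in each DMSO comparison and in the averaged effect, the 2 in each interaction, and the 3 widest and 3 narrowest by SD within groups. The genes and lists were chosen with earlier results of these data known. Checks on simulated data preceded the fit. Alternatives changed the scaling, the model, the probe filter and the arrays included. Same-numbered arrays of 2 groups were checked for pairing, and the numbers did not pair them.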

Additional observations from a re-analysis of the deposited data

Results flagged for a closer look

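Genes and the class medians of core, cap and immunoproteasome were checked in each group except silymarin at 8 h and at 24 h, with 3 arrays each. In 4 of the 108 combinations checked, 1 array stood far from the others of its group by Dixon's criterion. Chance alone meets that criterion in about 1 of 20 groups. PSMA1 was highest in DMSO 4 h replicate 1, at 11.99, with 11.89 in the next array. PSMB11 was lowest in DMSO 24 h replicate 3, at 4.893, with 5.431 next. PSMB6 was lowest in DMSO 4 h replicate 1, at 12.53, with 12.68 next. PSMD12 was highest in DMSO 4 h replicate 2, at 10.82, with 10.62 next.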

How the results depend on the processing

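Results numbered 115 and settings 39. Low signal limits 6 of the 47 genes, PSMB8, PSMB9, PSMB10, PSMA8, PSMB11 and PSMG4, whose group means all lay below 7.89. Of 28 core and cap genes, those with an unadjusted p under 0.05 in DMSO 8 h minus DMSO 4 h numbered 5, and 3 after re-centring the arrays, 2 after repeated quantile normalization, 2 after cyclic loess and 2 with only the groups compared in the fit. Leaving out 1 array gave 0 to 10. In DMSO 24 h minus DMSO 8 h they numbered 13, and 4 after cyclic loess, 8 with only the groups compared, and 3 to 21 with 1 array left out. Those above 0 in silymarin minus DMSO at 8 h numbered 23, and 14 with the replicate number as a block. Same-numbered arrays correlated between -0.14 and 0.43 in their deviations from group means, so the numbers do not pair the arrays, and the replicate block called 0 genes. At 24 h those below 0 ranged over 17 to 28 with 1 array left out, 17 without silymarin 24 h replicate 1. All genes called at 24 h numbered 1 after repeated quantile normalization and 1 at an adjusted p under 0.1 in limma, against 0.

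Small differences turned sign: PSME1 at 8 h to 0.0026 after re-centring, PSMB7 at 8 h to -0.0082 after repeated quantile normalization and -0.0093 after cyclic loess, and PSMB7 at 24 h to 0.0017 with array weights. With 1 array left out, differences at 8 h ranged over -0.037 to 0.094 for PSMB5, -0.026 to 0.063 for PSMB7, -0.11 to 0.0017 for PSMB9 and -0.026 to 0.0067 for PSME1. At 24 h they ranged over -0.085 to 0.0015 for PSMB6, -0.031 to 0.11 for PSMB10, -0.043 to 0.034 for PSME1 and -0.064 to 0.0018 for PSME2. PSMB8 with PSMB9 (r = 0.62) gave 0.42 after repeated quantile normalization and 0.53 over 19 arrays, and PSMB9 with TAP1 (0.67) gave 0.33 after repeated quantile normalization. PSMB5 with PSMB6 (0.59) gave 0.41 as deviations from group means and -0.0067 over 19 arrays, and PSMB6 with PSMB7 (0.60) gave 0.49 and 0.27. PSMB6 with PSMB9 (-0.06) gave 0.080 as deviations, 0.083 after repeated quantile normalization, 0.18 over 19 arrays and 0.21 without 2 arrays. PSMB7 with PSMB10 (-0.0092) gave 0.20 over 19 arrays, and PSMB8 with PSME2 (0.0099) gave -0.023 after re-centring and -0.085 without 2 arrays. The 19-array settings were chosen after seeing the data. The cause of each shift was not tested.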
